A study of Drosophila melanogaster with 8 samples.

Results

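The interior of chromosome arm 3L held 647 of the 4731 genomic regions at which γH2Av was called in Drosophila S2 cells. γH2Av is the form of the histone variant H2Av that carries a phosphate on its C-terminal tail. S2 is a cultured Drosophila cell line. The regions were obtained by merging all peaks of 4 peak lists that overlapped by at least 1 bp, and a region belonged to the interior when it started between positions 2000000 and 22500000 of arm 3L of the dm3 genome build. This window leaves out 90 regions on the telomere side (distal) and 54 on the centromere side (proximal), of 791 on the whole arm. The last region before the window lay at 3L:1967042-1971328 and the first inside it at 3L:2108252-2113554. The last region inside lay at 3L:22280272-22282790 and the first beyond it at 3L:22548633-22556651, so that no region straddled a bound.

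γH2Av had been recovered by ChIP-seq, in which an antibody pulls down the chromatin that carries a mark, and a peak is a stretch where the recovered DNA gives more reads than unselected input chromatin. The series compared cells labelled WT, which were left untreated, with cells in which RNAi was directed against dH1, the Drosophila linker histone. RNAi cells were cultured for 8 days and received 100 μg of double-stranded RNA on days 1, 4 and 7. Each condition had 2 replicates, described as independent, and the 8 samples were 4 γH2Av ChIP samples and their 4 inputs. All cells belonged to one line. As the series has no sample with an unrelated double-stranded RNA, the effect of adding RNA and that of losing dH1 cannot be told apart. The knockdown cannot be read from peak lists, and neither can read depth, which limits how firmly a missing call can be read.

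H2Av is a histone variant that replaces canonical H2A in part of the nucleosomes. In mammals its functions are divided between separate variants, of which H2A.X is the one phosphorylated upon damage. Phosphorylation of H2Av spreads around DNA double-strand breaks, where it helps to recruit repair factors, and the Jil1 kinase is known to modify the same residue at promoters of transcribed genes, so a γH2Av peak is not by itself a break. Linker histone binds nucleosomes at the entry and exit of DNA and compacts chromatin. Toward the centromere, an arm such as 3L passes into heterochromatin rich in repeats, while its interior is mostly gene-bearing euchromatin. Genes and repeats under the regions were not analysed here.

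The 4 lists placed 448 to 607 peaks on the interior. WT replicate 1 had 518 peaks there of 3761 in its whole list, WT replicate 2 had 607 of 3925, dH1 RNAi replicate 1 had 554 of 3733 and dH1 RNAi replicate 2 had 448 of 3037. The WT libraries averaged 562.5 ± 62.9 peaks and the dH1 RNAi libraries 501 ± 75.0 (SD, n = 2 each). The conditions overlapped, since dH1 RNAi replicate 1 lay between the WT libraries (exact permutation test, two-sided, p = 0.667). With 2 libraries against 2 the smallest p this test can give is 0.333, so it cannot reach 0.05. The interior took 13.8% of the list of WT replicate 1 (95% Wilson interval 12.7 to 14.9), 15.5% in WT replicate 2 (14.4 to 16.6), 14.8% in both dH1 RNAi libraries (13.7 to 16.0 and 13.5 to 16.1). These intervals cover counting error only, and all 4 overlap. The mean share differed between conditions by 0.177 percentage points (exact permutation p = 1, n = 2 each), and the library with the fewest peaks on 3L also had the shortest list.

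Peaks covered 1.59 Mb of the 20.5 Mb interior in WT replicate 1, 1.80 Mb in WT replicate 2, 1.56 and 1.28 Mb in the dH1 RNAi libraries. Both dH1 RNAi libraries lay below both WT libraries, by 0.275 Mb on average, with the smallest p the design allows (exact permutation p = 0.333). The median peak was 2482.5 bp wide in WT replicate 1, 2384 bp in WT replicate 2, 2346 and 2347.5 bp in the dH1 RNAi libraries. The difference of 86.5 bp between the condition means again separated the conditions at the smallest attainable p (exact permutation p = 0.333, n = 2 each). Over the 307 regions with exactly 1 peak in every library, where the same sites are compared, peaks were narrower in both dH1 RNAi libraries than in both WT libraries at 138 regions (45.0%) and wider at 15 (4.89%). In the whole series these shares were 42.7% and 7.15% of 1985 regions, so the narrowing on 3L was near the background.

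γH2Av peaks were spread unevenly along the arm, and all 4 libraries traced the same profile. In bins of 500 kb the number of merged regions ran from 2 to 34 with a median of 14, and its variance was 4.09 times its mean (5.82 times on the interior of 2L and 3.47 times on that of 3R). The 10 densest of the 41 bins held 41.0% of the regions. The densest bin, 4 to 4.5 Mb, held 34 regions, with 26 and 30 peaks in the WT and 28 and 25 in the dH1 RNAi libraries. It was followed by 20 to 20.5 Mb with 32 regions, 8 to 8.5 Mb and 19.5 to 20 Mb with 28 each, and 3 to 3.5 Mb with 25. The sparsest bin, 10 to 10.5 Mb, held 2 regions, and those at 4.5 to 5 Mb and 18 to 18.5 Mb held 4 each. The densest bin of the interior was thus the direct neighbour of one of its sparsest. The bins at 12 to 12.5 Mb and 6.5 to 7 Mb held 5 and 6 regions. Across the 41 bins, counts of any pair of libraries had a Spearman correlation between 0.905 and 0.972, given as a description since the bins share the same libraries.

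**Figure D1:**
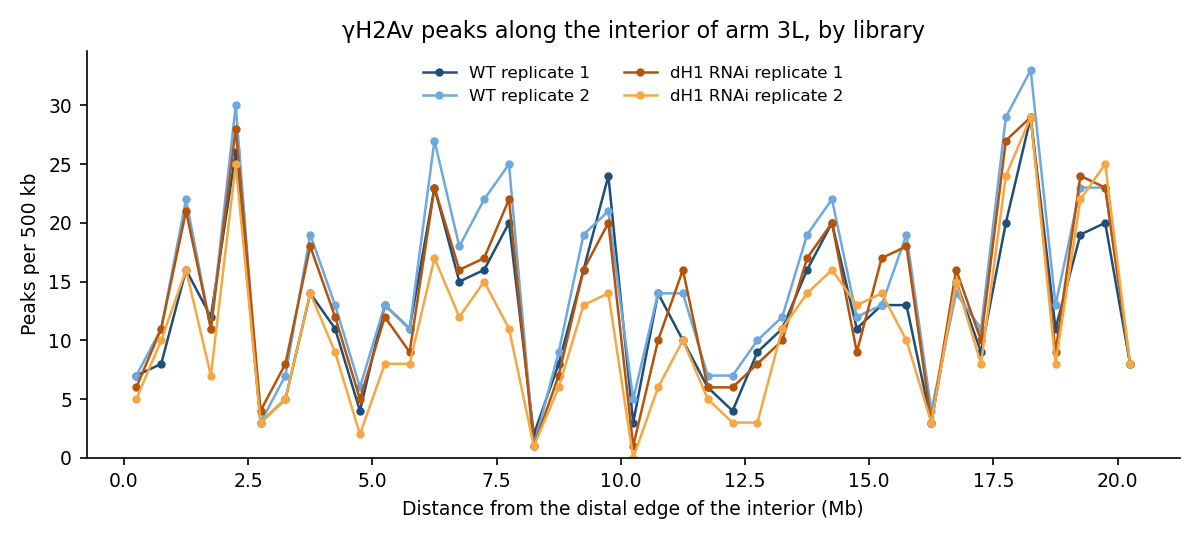
Peaks in each 500 kb bin of the interior of arm 3L (vertical axis) against distance from its distal edge in Mb (horizontal axis), with 1 line for each of the 4 libraries. The lines rise and fall together, from 25 to 30 peaks in the densest distal bin down to 1 or 2 in the sparsest bin, and dH1 RNAi replicate 2 lies lowest in much of the central stretch.

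Bin by bin, both WT libraries had more peaks than both dH1 RNAi libraries in 9 of 41 bins (19.0% of 195 bins across the series), and the reverse held in 1 bin (3.59% across the series). The exception was 17 to 17.5 Mb, with 13 peaks in each WT library and 17 and 14 in the dH1 RNAi libraries. At 12 to 12.5 Mb the WT libraries had 3 and 5 peaks and the dH1 RNAi libraries 1 and 0, and none of its 5 regions was called in all 4 libraries. In the last bin, 22 to 22.5 Mb, all 8 regions were called in every library.

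Neighbouring regions stood in tight groups parted by long empty stretches. The median gap between regions was 5558 bp, against 4177 bp on the interior of 2L and 5183.5 bp on that of 3R, and 120 of 646 gaps were under 1 kb. At the other end, 54 gaps of at least 100 kb added up to 9.68 Mb, or 47.2% of the interior. The longest empty stretch, 3L:13507344-13921281, spanned 414 kb. The next were 3L:10061248-10455107 (394 kb), 3L:18108503-18453618 (345 kb), 3L:13041807-13379942 (338 kb) and 3L:15157005-15491227 (334 kb). The first and the fourth of these gaps lay on either side of 1 stretch with regions, 3L:13379943-13507343.

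Regions no more than 10 kb apart formed 255 clusters, of which 105 were single regions. Clusters of 5 or more regions numbered 35 and held 240 regions, or 37.1% of the total, against 51.0% on the interior of 2L and 43.3% on that of 3R. The largest, 3L:20339826-20459911, packed 17 regions into 120 kb, with 16 and 19 peaks in the WT and 18 and 17 in the dH1 RNAi libraries, and 12 of its regions were called in all 4. A cluster of 10 regions followed at 3L:16079601-16132485, 8 of them called in all 4. The other large clusters held 9 regions each, at 3L:4239042-4298009, 3L:7312254-7372055, 3L:9419035-9456177 and 3L:19576424-19638286, of which 8, 4, 5 and 7 were called in all 4. On this interior 143 of 240 regions in clusters of 5 or more (59.6%) were found in all 4 libraries, against 39 of 105 single regions (37.1%). The share was 54.9% over all regions of the interior and 49.0% across the series, for which no split by cluster is given here. This difference is given as a description without a test, and the median widths of the clustered and the single regions, 2559.5 and 2193 bp, differed in the same direction.

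Every library called most of the regions, and WT replicate 2 called most of all. It called 589 of the 647 regions (91.0%), dH1 RNAi replicate 1 called 522 (80.7%), WT replicate 1 called 497 (76.8%) and dH1 RNAi replicate 2 called 406 (62.8%), an order that followed list length at both ends. All 4 libraries called 355 regions, or 54.9% (95% Wilson interval 51.0 to 58.7), against 49.0% of all 4731 regions. The same share was 57.9% on the interior of 2L and 61.2% on that of 3R. A single library called 93 regions (14.4%, against 23.3% across the series), and 60 of these came from WT replicate 2, 20 from WT replicate 1, 10 from dH1 RNAi replicate 1 and 3 from dH1 RNAi replicate 2. The commonest pattern after the complete one lacked only dH1 RNAi replicate 2, at 66 regions (10.2%, against 8.10% across the series).

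**Figure D2:**
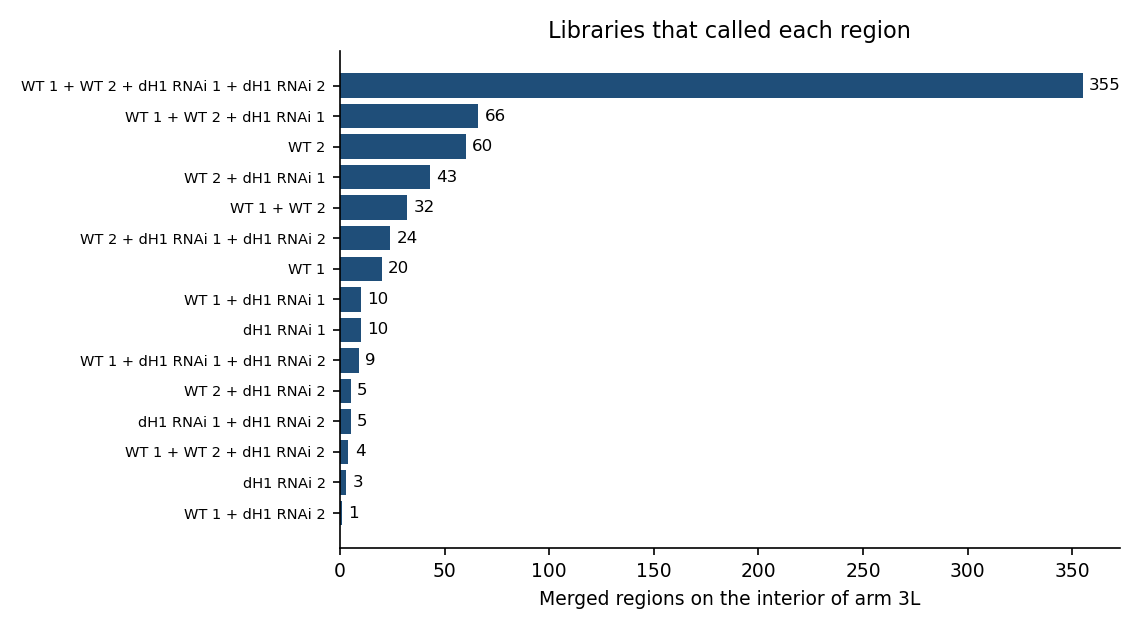
Number of merged regions on the interior of arm 3L (horizontal axis) for each combination of libraries that called them (vertical axis, replicate numbers after the condition). Regions of all 4 libraries lead with 355, and regions called in both dH1 RNAi and neither WT library number 5.

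In every list, regions called in all 4 libraries had the highest median rank, and the median width of regions rose with the number of calls. A peak's score was −10 times the log10 of the caller's p-value, which grows with depth, so scores were used only as a within-list percentile, the share of the library's own peaks that score lower. Regions called by 1, 2, 3 and 4 libraries had median widths of 1704, 1995, 2112 and 3079 bp. A region spans all its merged peaks, so its width can only grow with each call. The rise did not hold for every library: regions called by WT replicate 1 alone (20) or dH1 RNAi replicate 2 alone (3) had medians of 3548.5 and 6234 bp. Those of WT replicate 2 alone (60) and dH1 RNAi replicate 1 alone (10) had 1553.5 and 1656.5 bp. The best peak of a region called in all 4 libraries sat at a median percentile of 63.0 in WT replicate 1, 66.4 in WT replicate 2, 63.5 and 56.2 in the dH1 RNAi libraries. By contrast, the regions that only WT replicate 2 called had a median percentile of 9.93 in its list. Rank did not rise with every added call. The 20 regions that WT replicate 1 alone called sat at a median percentile of 36.1, above the 20.1 of those it shared with 1 other library. In dH1 RNAi replicate 2 the 3 regions it alone called had a median of 23.4, above the 11.2 of the 11 shared with 1 other library.

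**Figure D3:**
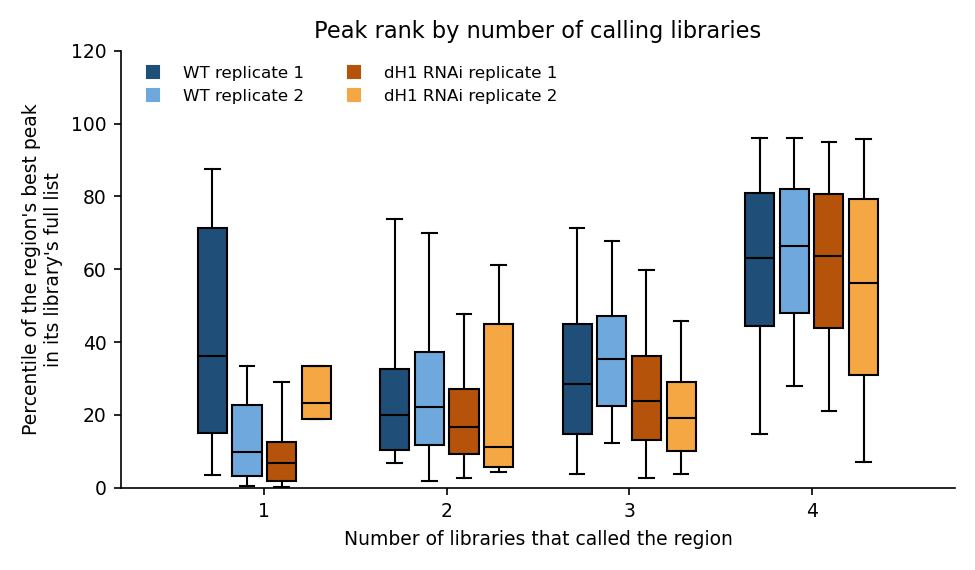
Percentile of a region's best peak in its library's full list (vertical axis) by the number of libraries that called the region (horizontal axis), with 1 box per library showing quartiles and median and whiskers at the 5th and 95th percentile. Medians for regions of all 4 libraries lie between 56.2 and 66.4, above those of every other class, and regions called by WT replicate 2 alone have a median of 9.93.

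Compared with their whole lists, 3L peaks were of middling strength. The median within-list percentile was 53.5 in WT replicate 1, 48.7 in WT replicate 2, 47.6 and 48.5 in the dH1 RNAi libraries, and both dH1 RNAi libraries lay below both WT libraries by 3.07 points on average (exact permutation p = 0.333, n = 2 each). The direction did not survive a stricter cutoff: with only peaks that scored at least 100 the difference was 1.41 points in favour of dH1 RNAi, and with equally long lists it was 0.173. Wider peaks ranked higher in each list, with a Spearman correlation of width and percentile between 0.609 and 0.751. Within each library, the interior of 3L was sparser and weaker than those of 2L and 3R, the only arms compared. It held 25.9 ± 3.26 peaks per Mb (SD, n = 4 libraries), against 27.7 ± 2.74 on the interior of 2L and 29.9 ± 2.90 on that of 3R, and was lower than each in 4 of 4 libraries (exact sign-flip permutation test, two-sided, p = 0.125, the smallest that 4 libraries allow). The median percentile was 3.54 points lower than on 2L and 7.50 points lower than on 3R, also in 4 of 4 libraries (exact p = 0.125).

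Each library placed 12 or 13 of its top 100 peaks on the interior of 3L, and all of these but 1 peak of WT replicate 1 lay in regions called in all 4 libraries. Among regions of all 4 libraries, the one with the best worst-case rank, 3L:18856929-18866839, ranked 5 and 8 in the WT and 2 and 8 in the dH1 RNAi lists. Tied peaks shared the smallest rank, and many top peaks were tied at a score of exactly 3100. These were 14 peaks at rank 5 of WT replicate 1, 29 at rank 8 of WT replicate 2 and 9 at rank 2 of dH1 RNAi replicate 1. The order of the very top regions is therefore not exact. Next came 3L:5595932-5603542, which ranked 25, 8, 19 and 29 in the same order of libraries (WT replicates 1 and 2, then dH1 RNAi replicates 1 and 2). The pair 3L:19796815-19801547 and 3L:19792154-19796741 lay less than 100 bp apart and ranked 47, 8, 60 and 23 and 55, 174, 42 and 19. Of the remainder, 3L:16370000-16375442 ranked 37, 44, 62 and 70, and 3L:18664497-18670018 ranked 90, 49, 22 and 9, higher in both dH1 RNAi lists. The other 4 of the top 10, at 3L:19437090-19441595, 3L:13006966-13012892, 3L:2598065-2602052 and 3L:22064012-22069578, had ranks between 5 and 260.

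Broad regions were concentrated in a few places and were not always strong. Of the 647 regions 101 spanned at least 5 kb, and 71 of these were called in all 4 libraries (70.3%, against 52.0% of 546 narrower regions). Across the series 49.0% of regions were called in all 4 libraries, and no split of these by width is given here. Width here is that of the merged region, which can only grow with each call. The bins at 3 to 3.5 Mb and 16.5 to 17 Mb held 12 broad regions each, and in the latter the median region measured 6218 bp. The widest region, 3L:16563281-16578423, spanned 15143 bp and was called in all 4 libraries, with ranks of 3208 and 1761 in the WT and 2492 and 304 in the dH1 RNAi lists. Its percentile was low in WT replicate 1 (14.7) and dH1 RNAi replicate 1 (33.3), 55.1 in WT replicate 2 and 90.0 in dH1 RNAi replicate 2, so that replicates of one condition lay far apart. Next in width were 3L:16601103-16615986 at 14884 bp and 3L:3185940-3200385 at 14446 bp, the first called only by WT replicate 2 and the other by WT replicate 2 and dH1 RNAi replicate 2. Then came 3L:16851415-16863865, 12451 bp wide and called only by WT replicate 2, and 3L:21499456-21511570, 12115 bp wide, which ranked 254 and 324 in the WT and 289 and 36 in the dH1 RNAi lists.

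Regions specific to one condition were few. Both WT libraries and neither dH1 RNAi library called 32 regions (4.95%, 95% Wilson interval 3.52 to 6.90), against 3.64% across the series, 2.70% on the interior of 2L and 1.69% on that of 3R. Most of them were weak, as were WT-only regions across the series: 28 of 32 lay below the 50th percentile of WT replicate 1 and 30 of 32 below that of WT replicate 2, with medians of 17.9 and 13.3. Across the series these were 158 and 165 of 172 regions, with medians of 17.0 and 15.1. A dH1 RNAi peak lay within 10 kb of 26 of them, at a median distance of 2925 bp. The strongest exception was 3L:3899973-3907025, which was 7053 bp wide, ranked 557 and 414 in the WT lists, and lay 361 bp from the nearest dH1 RNAi peak. It was followed by 3L:20517490-20521115 (ranks 990 and 1089), 3L:8301108-8303304 (1805 and 2466) and 3L:20527634-20535001 (477 and 2527). The other 4 named by the rule, at 3L:6606385-6608373, 3L:11825268-11827653, 3L:7312254-7314022 and 3L:12506890-12508758, ranked between 2596 and 3083 in both WT lists. WT-only regions were 19 when each list was cut to its 3037 strongest peaks, and with 1 library left out they were 93 (without WT replicate 1), 55 (without WT replicate 2) and 98 (without dH1 RNAi replicate 1), since fewer calls then set the class.

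Both dH1 RNAi libraries and neither WT library called 5 regions (0.773%, 95% Wilson interval 0.331 to 1.80), against 1.06% across the series. The strongest, 3L:21558460-21563956, was 5497 bp wide and ranked 238 and 308 in the dH1 RNAi lists. 3L:16579060-16586387, 7328 bp wide, ranked 416 and 1177 and began 636 bp beyond the widest region of the interior. 3L:13019043-13022953 and 3L:13023259-13027195 were neighbours inside a cluster of 8 regions, with ranks of 1879 and 3031 for the first and of 2356 and 1596 for the other. The last, 3L:5546423-5548958, ranked 2530 and 2559 and lay 515 bp from the nearest WT peak. All 5 had a WT peak within 2258 bp. Their number moved to 13 with equally long lists, to 2 once peaks within 1000 bp of each other were merged and to 3 when overlap had to cover at least 50% of the shortest peak, and without 1 library it was 14 (WT replicate 1), 30 (WT replicate 2), 8 (dH1 RNAi replicate 1) or 16 (dH1 RNAi replicate 2).

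Regions called in all 4 libraries changed rank between conditions in a pattern that followed position on the arm. Each region's best score was ranked among the 2320 regions of the genome called in all 4 libraries, as a percentile from 0 (weakest) to 100, so that list length did not enter. Of the 355 on the interior of 3L, 89 (25.1%) ranked lower in both dH1 RNAi libraries than in both WT libraries, and 46 (13.0%) ranked higher. Across the series these shares were 18.6% and 14.0%. On the interior of 2L they were 26.4% and 12.1%, and on that of 3R 12.6% and 16.6%. A difference of any size counted here. On the interior of 3L the condition means differed by at least 20 points at 24 of the 89 regions and 15 of the 46. They also did so at 16 of the 220 regions whose conditions overlapped. With the percentile taken within each whole list, 118 regions of the interior of 3L ranked lower and 29 higher. Replicates were not closer than conditions throughout: scores of the 355 regions had a Spearman correlation of 0.572 between the WT libraries, 0.810 between the dH1 RNAi libraries and 0.679 to 0.781 between conditions, given as a description over regions of the same libraries.

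Most of the loss in rank lay in the central part of the arm. When the interior was cut into 3 equal stretches, a split chosen after the values had been seen, the central one (8.83 to 15.7 Mb) held 92 regions of all 4 libraries. Of these 50 (54.3%) ranked lower in both dH1 RNAi libraries and 1 (1.09%) ranked higher. In the distal stretch 23 of 107 (21.5%) ranked lower and 13 (12.1%) higher, and in the proximal stretch 16 of 156 (10.3%) ranked lower and 32 (20.5%) higher. The central stretch had a median percentile of 42.5 in WT replicate 1, 35.7 in WT replicate 2, 24.2 and 28.0 in the dH1 RNAi libraries. Both dH1 RNAi libraries were below both WT libraries, by 13.0 points on average (exact permutation p = 0.333, the smallest possible, n = 2 each). The proximal stretch went the other way, with medians of 46.7 and 50.6 in the WT and 54.6 and 57.1 in the dH1 RNAi libraries. In the distal stretch the conditions overlapped, at 54.5 and 51.1 against 56.8 and 53.3.

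**Figure D4:**
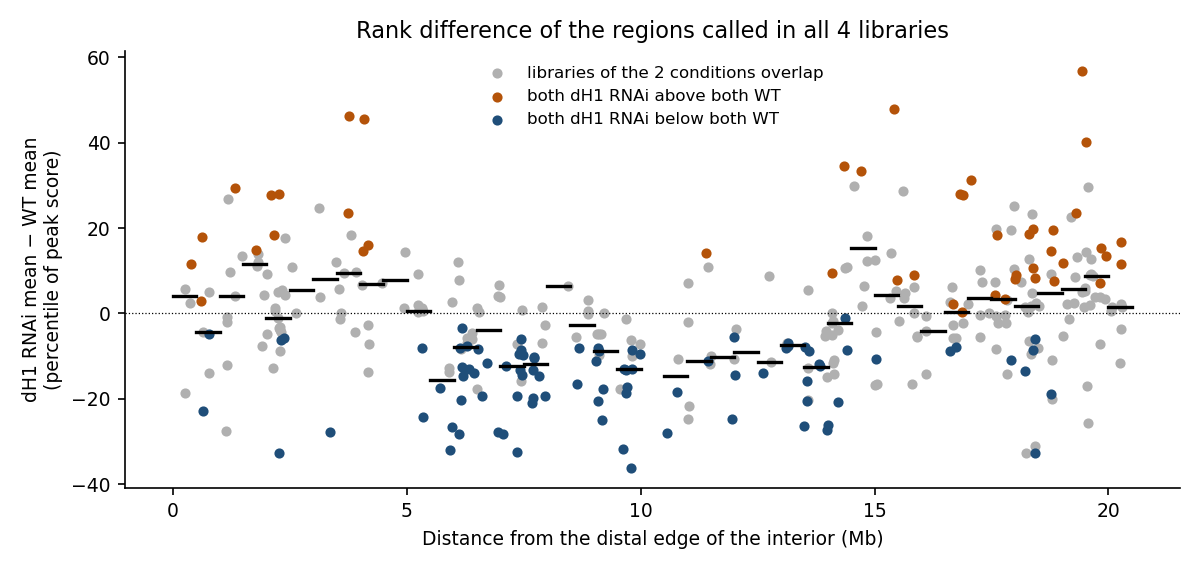
Difference of the mean percentile, dH1 RNAi minus WT (vertical axis), for each of the 355 regions called in all 4 libraries against distance from the distal edge of the interior in Mb (horizontal axis); black bars are medians of 500 kb bins. Points of regions whose libraries do not overlap are orange where dH1 RNAi ranked higher (46) and dark blue where it ranked lower (89), and the dark blue points crowd into the central part of the arm.

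Bin medians placed the pattern more finely. From 7.5 to 16.5 Mb, a run of 18 bins picked as the longest with at most 1 bin median at or above 0, 72 of 142 regions of all 4 libraries (50.7%) ranked lower in dH1 RNAi and 3 (2.11%) ranked higher, with a median difference of −9.79 points. In the rest of the interior 17 of 213 (7.98%) ranked lower and 43 (20.2%) higher, with a median of 3.43 points. As the run was picked for this pattern, its counts are a description. The same run held 275 of the 647 regions (42.5%), 22 of the 32 WT-only and 2 of the 5 dH1-only regions. Matched peaks were narrower in both dH1 RNAi libraries at 72 of 129 regions of the run (55.8%) and at 66 of 178 elsewhere (37.1%), and wider at 1 and 14.

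The central stretch also held a smaller share of the peaks in both dH1 RNAi libraries. It took 30.5% of the interior's peaks in WT replicate 1 and 30.1% in WT replicate 2, against 28.2% and 24.8% in the dH1 RNAi libraries, a difference of 3.86 percentage points between condition means (exact permutation p = 0.333, n = 2 each). The proximal stretch held 38.2% and 38.4% in the WT and 39.7% and 45.1% in the dH1 RNAi libraries, but its peak numbers overlapped, at 198 and 233 against 220 and 202. Regions of the central stretch were also narrower, with a median of 2011 bp against 2779 bp distally and 2786 bp proximally, and only 10 of its 190 regions reached 5 kb. Among regions under 5 kb alone, 47 of 84 in the central stretch (56.0%) ranked lower and 1 higher, against 20 and 9 of 80 distally and 13 and 21 of 120 proximally. The share that ranked lower in the central stretch was thus as large without the broad regions. In the proximal stretch the conditions overlapped once broad regions were left out, with median percentiles of 42.3 and 46.8 in the WT and 45.7 and 45.1 in the dH1 RNAi libraries. Read depth and input coverage along the arm cannot be read from peak lists.

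Other arms showed a stretch of this kind in part. On the interior of 2L the distal stretch had 56 of 135 regions lower (41.5%) and 12 higher (8.89%), while its central stretch had 18 lower and 21 higher of 133. On 3R no stretch exceeded 17.3% lower, and the distal one had 16 lower and 25 higher of 157. These counts come from the same 4 libraries and are set side by side without a test.

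**Figure D5:**
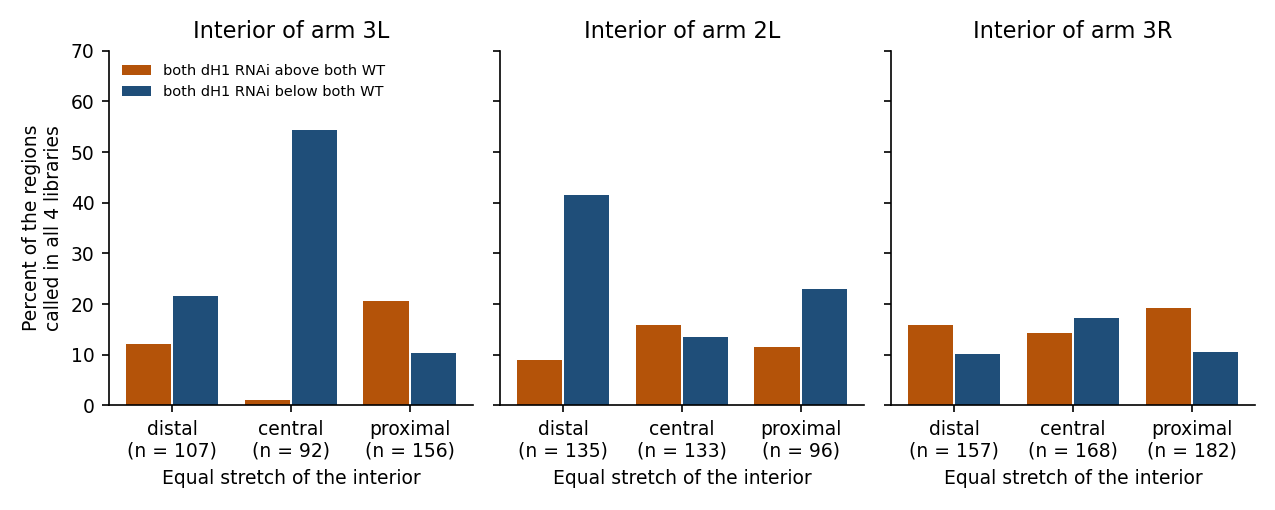
Percent of the regions called in all 4 libraries that ranked higher (orange) or lower (dark blue) in both dH1 RNAi than in both WT libraries (vertical axis), for 3 equal stretches of the interiors of arms 3L, 2L and 3R (horizontal axis, n = regions). The central stretch of 3L stands at 54.3% lower and 1.09% higher, and the distal stretch of 2L at 41.5% lower.

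The 5 largest gains in rank among regions whose libraries did not overlap all lay outside the central run. They are named by the size of the difference, which is therefore a description. At 3L:21432874-21440291 the percentile was 9.44 and 6.12 in the WT and 50.2 and 79.2 in the dH1 RNAi libraries, a gain of 56.9 points for a region of 7418 bp. WT libraries drew it as 1 peak each, whereas dH1 RNAi libraries drew it as 2 and 3. At 3L:17417134-17428415 the WT values were 25.2 and 51.6 and the dH1 RNAi values 87.5 and 85.2. The WT libraries were far apart at 3L:5768793-5777005 (74.2 and 13.8, against 94.4 and 86.1) and at 3L:21520502-21531116 (10.9 and 82.4, against 84.0 and 89.5), so that the gain there rested on 1 WT library. At 3L:6085742-6089228 both WT values were close, 33.7 and 39.5, and both dH1 RNAi values stood well above them, 84.4 and 80.1.

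Of the 5 largest losses among regions whose libraries did not overlap, 3 lay in the central run. At 3L:11781652-11787737 the WT percentiles were 61.2 and 57.6 and the dH1 RNAi percentiles 17.2 and 29.1, a fall of 36.2 points. At 3L:9351158-9354299 they were 73.1 and 57.7 against 27.9 and 37.9, and at 3L:7927797-7930480 54.5 and 30.6 against 13.9 and 7.33. Outside the run, 3L:20419803-20426730 fell from 85.0 and 91.5 to 51.5 and 59.8 inside the largest cluster of the interior. 3L:4277071-4281305 fell from 38.0 and 56.4 to 1.21 and 27.6. Both 3L:9351158-9354299 and 3L:20419803-20426730 were cut into more peaks in the dH1 RNAi libraries, and each piece was scored alone. The region with the largest loss, 3L:11781652-11787737, held 2 peaks in WT replicate 1 and 1 peak in each other library. 3L:4277071-4281305 and 3L:7927797-7930480 held 1 peak in every library. Of the largest gains, 3L:17417134-17428415 and 3L:21520502-21531116 held 1 peak in WT replicate 1 and 2 in each other library. On the interior, 30 and 37 regions held more than 1 peak in the dH1 RNAi libraries, against 20 and 18 in the WT libraries. This count is given for the interior only. The part of splitting in single ranks was not tested. Merging peaks up to 1000 bp apart joined regions but did not score the pieces of a split peak together.

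Regions that gained were wider in the median than those that lost, though their widths overlapped. The 46 regions that ranked higher in dH1 RNAi had a median width of 4008 bp and 15 of them (32.6%) reached 5 kb. The 89 that ranked lower had a median of 2731 bp and 9 (10.1%) reached 5 kb, and the 220 with overlapping libraries had a median of 2998.5 bp with 47 broad ones (21.4%). Across the series the 3 classes had medians of 3674.5, 2851 and 3259 bp and shares of broad regions of 27.8%, 12.8% and 21.9%, so the order on 3L was that of the genome.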

How the data were processed

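The authors aligned reads to dm3 with Bowtie 0.12.5 (up to 2 seed mismatches, every site of a read kept up to 10000), removed duplicates with sambamba, and called peaks per ChIP library with MACS 1.4, its input as control, at p below 1e-05. Reads from repeats thus count at each copy. The deposited lists give positions and a score, the caller's −10 log10 p as the authors wrote it; 4 identical copies were not used. Starts were converted to 1-based positions. Merging, ranks and exact permutation tests (6 labelings of 4 libraries) were run in Python 3.11.15 with numpy 2.4.6, scipy 1.17.1 and matplotlib 3.10.9, and tested on simulated data. Tied scores shared a percentile.

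The regions, lists and tests were chosen with earlier results of these data known. Named regions were, by rule, the 10 best-ranked of all 4 libraries (smallest worst rank), all dH1-only regions, the 8 best-ranked WT-only regions, the 5 widest regions, gaps, clusters and bins at either extreme, and the 5 largest gains and losses of rank among regions whose conditions did not overlap. Of 4 clusters of equal size all are named. Interiors of 2L and 3R leave out 2 Mb at each end. Alternatives were a minimum score of 100, equally long lists, each library left out, replicate block, other merging and overlap rules, the whole arm and other cluster distances. No sequence is given, since no dm3 genome was used here.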

Additional observations from a re-analysis of the deposited data

How the results depend on the processing

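Peak number, covered length, median width, matched width, density against 2L and 3R and the share and rank of the central stretch kept their direction under every alternative run for them. The difference in share of the list reversed with a minimum score of 100 (−0.440 percentage points), with equally long lists (−0.329) and without WT replicate 1 (range with 1 library left out −0.669 to 1.02). The difference in median percentile reversed with a minimum score of 100 (1.41) and with equally long lists (0.173). The dH1-only count was 13 with equally long lists, 2 with peaks up to 1000 bp apart merged, 3 with 50% overlap, 9 on the whole arm and 8 to 30 with 1 library left out. The WT-only count was 19 with equally long lists and 36 to 98 with 1 library left out. Fewer calls or comparisons are needed when a library is left out, which raises these counts by construction. On the same ground regions ranked higher numbered 84 to 120 and lower 135 to 170, in the central stretch 4 to 14 higher and 57 to 87 lower (87 without dH1 RNAi replicate 2), and in the other stretches 73 to 110 higher and 78 to 102 lower. With whole-list percentiles 29 regions ranked higher, all 29 outside the central stretch and 0 inside it, and 0 did so there with a minimum score of 100. Merging at 1000 bp gave the opposite sign at 3L:21520502-21531116 (−1.69 points) and 3L:4277071-4281305 (8.18 points). In that setting a joined block takes the best peak of all it joins. 3L:4277071-4281305 was joined to its neighbour 3L:4281801-4284987, so its value is that of the joined block. Which peak set the value at 3L:21520502-21531116 was not examined. Of the dH1-only regions 3 of 5 kept their class with a minimum score of 100, with 50% overlap and with merging.

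In the replicate block, which pairs libraries of one number, the paired differences in peak number were 36 and −159 (mean −61.5, exact sign-flip p = 1), those in share of the list 1.07 and −0.714, and those in central rank −18.3 and −7.74 (exact p = 0.5, the smallest 2 pairs allow), so no call was possible or changed. The labels name no shared batch, and deviations of same-numbered libraries were correlated at −0.190 over 355 regions. With 2 libraries per condition, their deviations mirror each other, so the crossed pairs had the same correlation with the opposite sign by construction. The correlation therefore cannot show whether same-numbered libraries shared a batch. Crossing the numbers was an alternative chosen after seeing the data, like those of the central stretch, and was run for peak number only. It gave an exact sign-flip p of 0.5, the smallest 2 pairs allow, so no call was possible there either. Depth is unknown from peak lists, so a missing call may reflect few reads.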
